A study of Capra hircus with 6 samples.

Results

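Zinc, copper and iron are needed by many enzymes of the skin, and each is harmful when free in excess. Cells therefore take them up, store them and release them through dedicated carriers and binding proteins. The 47 genes described here are those whose deposited symbol names a zinc carrier of the SLC30A or SLC39A family, a copper carrier or chaperone, an iron carrier, reductase, oxidase or sensor, ferritin, a haem oxygenase or a metallothionein. The rule uses the symbol alone, out of 26938 loci in the table, and each has 1 locus.

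RNA was sequenced from flank skin of 6 female Changthangi Pashmina goats, all 26 months old, of which 2 had a brown, 2 a white and 2 a black coat. Each biopsy was a punch of about 7 mm, taken after the site was shaved, and it holds keratinocytes, hair follicles, pigment cells, fibroblasts, vessels, glands and immune cells together. In such tissue fewer cells of a type and less RNA per cell cannot be told apart. The table gives 1 FPKM per coat colour, in which the authors combined the 2 goats, so all values below are the authors' values over 2 goats. No value per goat, count or error was available here, and no difference between colours could be set against the spread between goats. All ratios are therefore descriptions without a test, and the depth behind single values is unknown.

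Zinc leaves the cytosol through SLC30A carriers, either out of the cell or into vesicles and organelles, and enters it through SLC39A carriers. Copper enters through SLC31A1 and is passed by chaperones such as ATOX1 and CCS to the pumps and enzymes that use it. ATP7A is the pump that loads copper into enzymes of the secretory route. Among these is tyrosinase, the first enzyme of melanin synthesis, and loss of ATP7A function in people and mice gives pale, brittle hair. Iron is reduced by some of the STEAP proteins, carried by SLC11A2, stored in ferritin and exported through SLC40A1, known as ferroportin.

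Most of these genes were well detected in skin. Of the 47, 37 reached an FPKM of at least 1 in at least 1 colour, and ratios between colours are given for these beside the 14460 loci with the same minimum. A log2 ratio of 1 or -1, a 2-fold difference, is the limit used for counts, and loci listed at 0 in a colour have no ratio. In white against black skin, 4 of the 37 genes were higher by 2-fold or more, SLC30A1, SLC39A8, ATP7A and SLC40A1. That is 10.8% of the genes, against 10.7% of all loci. SLC11A1 was lower by as much, or 2.70% against 2.36% of loci. In brown against white skin, STEAP1 and SLC11A1 were higher by 2-fold or more, or 5.41% of the genes against 2.49% of loci, while none was lower, against 4.87% of loci. SLC11A1 met the minimum in black skin alone and lay under 1 FPKM in both brown and white. With at least 1 FPKM required in both colours compared, it left both counts, and STEAP1 was 1 of 36 genes higher in brown than in white, against 1.54% of loci. In brown against black skin none passed the limit in either direction, against 3.74% of loci higher and 1.31% lower. The shares in white against black thus lay close to those of all loci.

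As a group the metal genes did not stand off from the other loci. Their median log2 ratio was 0.13 in white over black, beside 0.25 over all loci with a ratio. In brown over white it was -0.03, beside -0.04, and in brown over black 0.19, beside 0.21. A log2 ratio within 0.5 of 0 was found in these comparisons for 23, 29 and 27 of the 37 genes. These are 62.2%, 78.4% and 73.0% of them, beside 60.1%, 73.1% and 72.1% of loci. The highest of the 3 levels was in brown skin for 13 genes, in white for 16 and in black for 8. The same shares over all loci were 36% for brown, 47.8% for white and 16.3% for black. Black skin had the lowest level for 20 of the 37 genes, and at 56.0% of all loci.

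**Figure D1:**
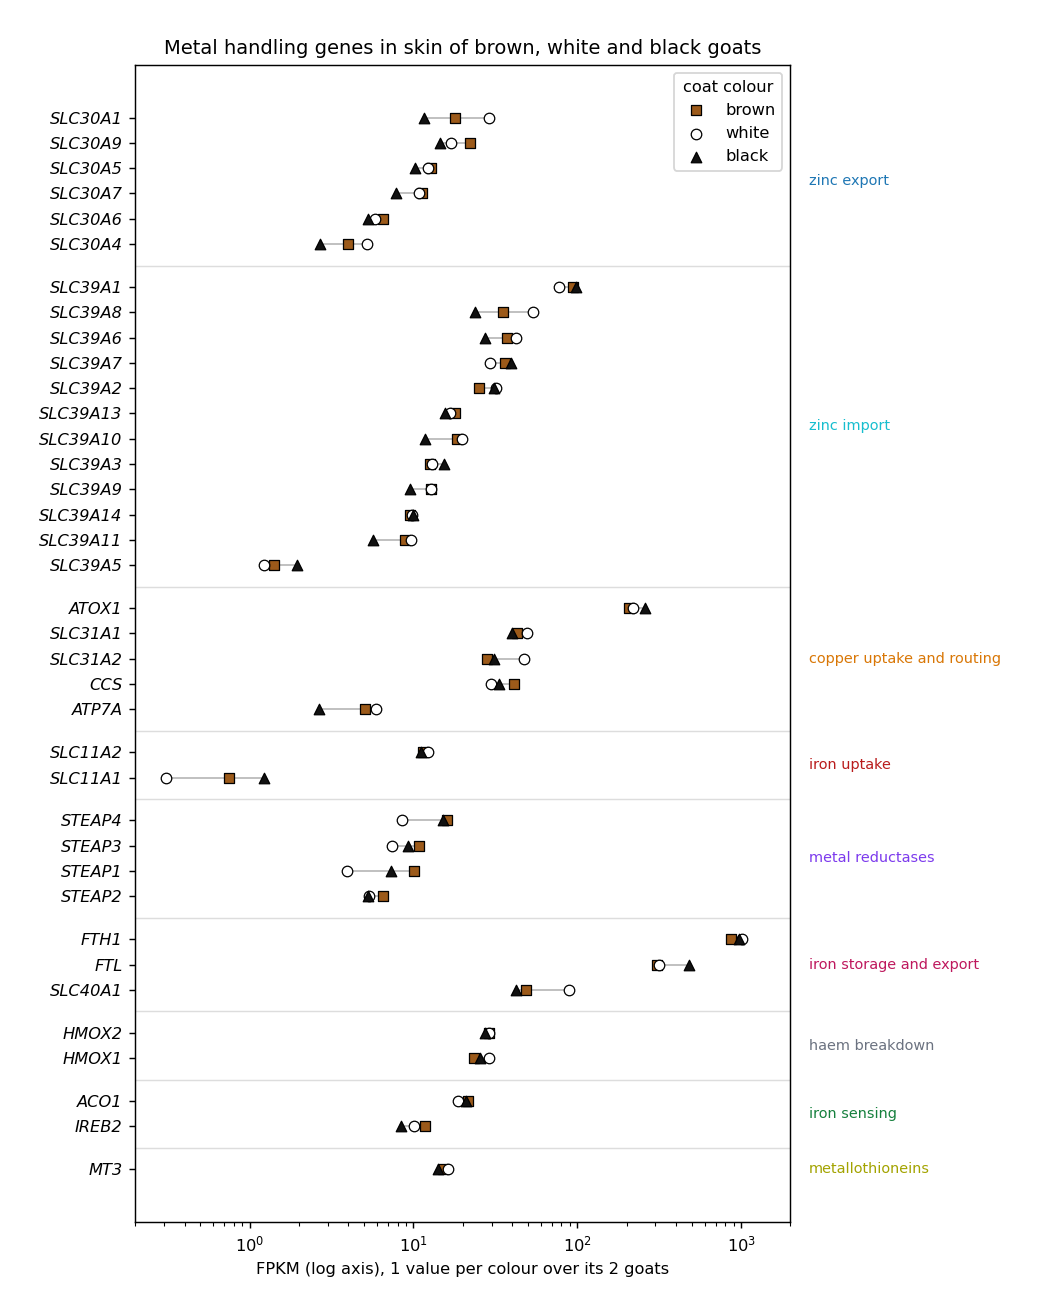
FPKM on a log axis of the 37 metal handling genes that reached 1 FPKM in a colour, grouped by role, with squares for brown, circles for white and triangles for black skin, each the authors' value over 2 goats. FTH1 reaches 1015 FPKM in white skin, SLC11A1 is the lowest gene at 0.308 FPKM in white, and for most genes the 3 colours lie close together.

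The ratios to black skin were shifted as a whole across the table, and the shift differed with the span of the locus, which counts exons and introns alike. The median log2 ratio of white over black was 0.07 for loci spanning up to 3 kb and 0.70 for those over 100 kb. That of brown over black was 0.03 and 0.56, and that of brown over white -0.03 and -0.14. Of the 37 genes, 3 span up to 3 kb, 20 span 3 to 30 kb, 11 span 30 to 100 kb and 3 over 100 kb, which are SLC39A10, SLC39A11 and ATP7A. Ratios are therefore also given as span-centred ratios, which are the log2 ratio minus the median of all loci of similar span.

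Among the zinc exporters SLC30A1 differed most between colours. SLC30A1 sits in the plasma membrane and removes zinc from the cell, and in cultured mammalian cells its transcript rises with zinc. It had 18.0 FPKM in brown, 28.9 in white and 11.6 in black skin. White skin was highest and black lowest. The log2 ratio was 1.31 in white over black, -0.68 in brown over white and 0.63 in brown over black. Of all loci, 5.18% had a ratio of white over black at least as high. Its locus on chromosome 16, from 69540880 to 69547733 in the coordinates of the table, spans 6854 bp, and its span-centred ratio of white over black was 1.25. Of the 4 genes higher by 2-fold or more in white than in black, it was the only one past that limit once span-centred.

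All 6 SLC30A genes that reached 1 FPKM had ratios above 0 in white over black and in brown over black, as did 69.2% and 71.2% of all loci. Their ratios of white over black ranged from 0.13 for SLC30A6 to 1.31, with a median of 0.37. Span-centred, 3 of the 6 were below 0, SLC30A6 at -0.21, SLC30A7 at -0.06 and SLC30A9 at -0.24, and SLC30A5 was at 0.05. SLC30A4, which fills vesicles with zinc and is needed in mice for zinc in milk, had 3.99 FPKM in brown, 5.17 in white and 2.70 in black skin. At a log2 ratio of 0.93 in white over black it was the nearest below the 2-fold limit. SLC30A9, a mitochondrial zinc carrier, had 22.1 FPKM in brown, 16.96 in white and 14.5 in black skin, so brown was highest. SLC30A5, SLC30A6 and SLC30A7, which supply zinc to the secretory route, lay between 5.31 and 12.9 FPKM in every colour. They differed by log2 ratios of at most 0.54. Summed over the 10 SLC30A genes, the level was 74.8 FPKM in brown, 80.2 in white and 52.2 in black skin.

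Among the importers SLC39A8 stood out. SLC39A8, also called ZIP8, brings zinc, manganese and iron into cells. Its FPKM was 35.2 in brown, 53.5 in white and 23.8 in black skin, the same order of colours as for SLC30A1. The log2 ratio was 1.17 in white over black, which 7.09% of loci reached or passed, -0.60 in brown over white and 0.56 in brown over black. The locus covers positions 20801218 to 20884265 of chromosome 6, a span of 83048 bp, and the span-centred ratio of white over black was 0.70.

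SLC39A1, a widely used zinc importer of the plasma membrane, was the most abundant of its family and was lowest in white. Its level was 94.7 FPKM in brown, 76.8 in white and 97.8 in black skin, a log2 ratio of white over black of -0.35. SLC39A7, which releases zinc from the endoplasmic reticulum, had the same pattern, with 36.1 FPKM in brown, 29.5 in white and 39.1 in black skin. SLC39A6, related to SLC39A10, had 37.5 FPKM in brown, 42.1 in white and 27.4 in black skin, a log2 ratio of white over black of 0.62. SLC39A10 and SLC39A11 had ratios of white over black of 0.74 and 0.76, but their loci span 362253 and 286125 bp, and the span-centred ratios were -0.15 and -0.12. SLC39A2, a zinc importer of keratinocytes in mice and people, had 25.02 FPKM in brown, 31.7 in white and 31.1 in black skin.

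The remaining importers, SLC39A3, SLC39A5, SLC39A9, SLC39A13 and SLC39A14, had log2 ratios from -0.67 to 0.42 for white over black and were within 0.46 of 0 in both comparisons with brown. Of the 12 importers that reached 1 FPKM, 7 had a ratio of white over black above 0, beside 69.2% of all loci, with a median of 0.06, and only SLC39A8 passed the 2-fold limit. The summed level of the 14 SLC39A genes was 310.2 FPKM in brown, 317 in white and 289 in black skin. The summed importers were thus 4.15 times the summed exporters in brown, 3.95 times in white and 5.54 times in black skin. These sums are of deposited FPKM and are not span-centred. The part of the shift in the ratios to black skin in them was not tested. SLC39A10 shares its locus with DNAH7 and SLC39A1 with CREB3L4, which had at most 3.74 and 4.17 FPKM.

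**Figure D2:**
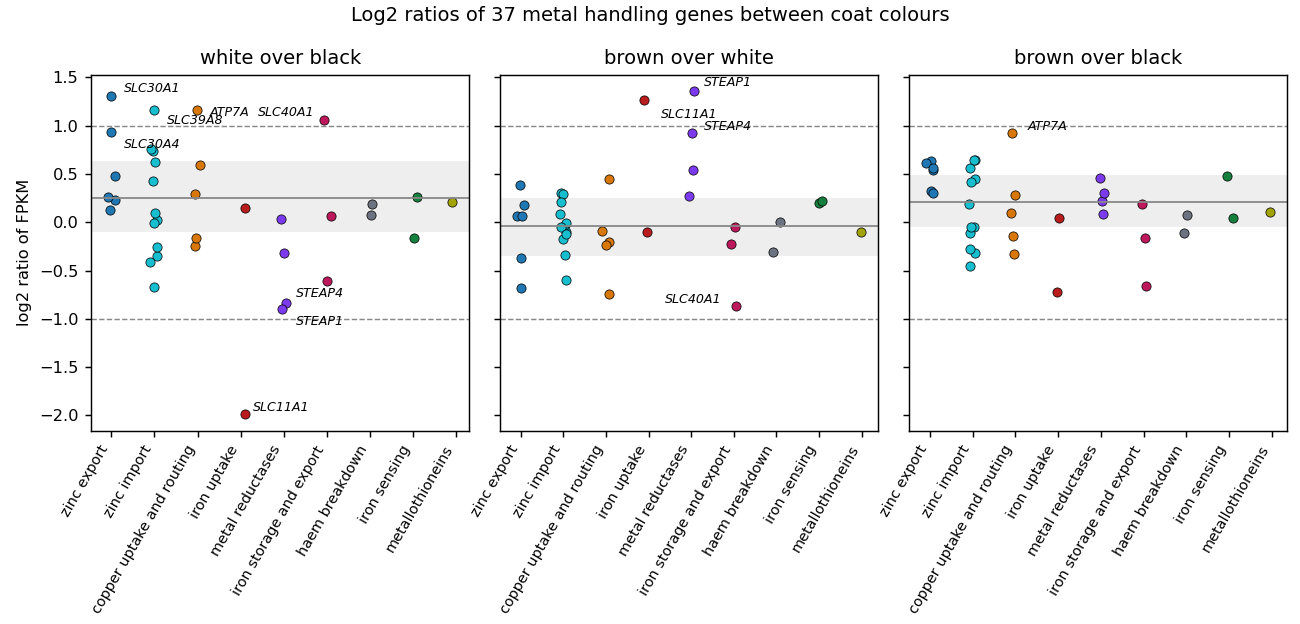
Log2 ratio of FPKM for the 37 genes by role, with a panel for each of the 3 comparisons of colours and 1 point per gene. The grey band holds the middle 50% of all loci, the solid line their median, and the dashed lines mark 2-fold. SLC30A1 lies at 1.31 in white over black, and no gene passes 2-fold in brown over black.

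ATOX1, the chaperone that hands copper to ATP7A and ATP7B, had 206 FPKM in brown, 219 in white and 260 in black skin. It was the most abundant of the copper genes and among the 2.79%, 2.62% and 2.26% of loci with the highest FPKM in these colours. The uptake carrier SLC31A1 had 42.7 FPKM in brown, 49.1 in white and 40.1 in black skin, with log2 ratios between -0.20 and 0.29. SLC31A2, a related protein of endosomes and lysosomes, had 28.2 FPKM in brown, 47.1 in white and 31.1 in black skin, so white stood above both other colours, with a log2 ratio of 0.60 over black and of -0.74 for brown over white. The 2 genes lie 63.9 kb apart on chromosome 8. CCS, which loads copper into superoxide dismutase, had 40.8 FPKM in brown, 29.8 in white and 33.5 in black skin.

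ATP7A was the copper gene with the largest ratio, at a far lower level than its chaperone. Its FPKM was 5.03 in brown, 5.94 in white and 2.66 in black skin, so black was the lowest and brown and white lay close. The log2 ratio was 1.16 in white over black, -0.24 in brown over white and 0.92 in brown over black. Ratios at least as high were found at 7.22% of loci in white over black and 5.07% in brown over black, where it was the nearest of the 37 genes to the 2-fold limit. The locus lies on chromosome X, from 67088513 to 67244369 in the table, and spans 155857 bp. Span-centred, ATP7A did not pass the limit, with ratios of 0.53 in white over black, -0.14 in brown over white and 0.40 in brown over black.

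ATP7A was highest in white skin, while the summed melanocyte markers were lowest there. Over the 12 markers, which include ATP7A itself, the summed level was 78.0 FPKM in brown, 34.6 in white and 66.6 in black skin. Single markers ranged from 0.949 to 22.5 FPKM in brown, from 0.120 to 8.83 in white and from 0.935 to 30.9 in black skin. The markers had a median log2 ratio of -0.36 in white over black, with 4 of 12 lower and 2, ATP7A and MITF, higher by 2-fold or more, and 0.53 in brown over white, with 5 higher and none lower. In brown over black it was 0.33, with 2 higher and none lower. Single markers did not share 1 order of colours. MITF and OCA2 were highest in white and lowest in black, as ATP7A was, whereas PMEL and TYRP1 were lowest in white. PMEL had 22.5 FPKM in brown, 3.77 in white and 30.9 in black skin, and TYRP1 9.72, 0.120 and 9.79. The gap in the summed level between white and black skin came mainly from PMEL and TYRP1. Basal keratinocytes were represented by 6 markers, whose summed level was 22106 FPKM in brown, 17449 in white and 13421 in black skin, nearly all of it from KRT14 and KRT5, which were highest in brown. The 6 markers had a median log2 ratio of 0.69 in white over black, 0.09 in brown over white and 0.71 in brown over black. The medians over all loci were 0.25, -0.04 and 0.21. TP63, ITGB4 and COL17A1 were highest in white, as ATP7A was, while ITGA6, KRT14 and KRT5 were highest in brown. All 6 were lowest in black. Over all loci, white was highest at 47.8% and black lowest at 56.0%. The part of both cell types in the ratios of ATP7A was not tested.

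The iron carriers SLC11A2 and SLC11A1 differed in level and in pattern. SLC11A2, the carrier of ferrous iron also called DMT1, had 11.5 FPKM in brown, 12.3 in white and 11.1 in black skin. The 3 colours thus lay within a log2 range of 0.15. SLC11A1, its relative in the phagosomes of macrophages and neutrophils, had 0.744 FPKM in brown, 0.308 in white and 1.22 in black skin. The log2 ratios were -1.99 in white over black, 1.27 in brown over white and -0.72 in brown over black. It was the lowest of the 37 genes in level and is among them only through its level in black skin, the colour where it was highest, so the size of these ratios is not set against the other genes. With 1 FPKM added to each value SLC11A1 passed the 2-fold limit in no comparison.

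The summed level of neutrophil markers, led by S100A8 and S100A12, was highest in black and lowest in white skin. The summed level of 9 neutrophil markers was 425 FPKM in brown, 69.0 in white and 1436 in black skin, and S100A8 and S100A12 made up most of it. Of 7 markers with an FPKM of at least 1, 4 were lower and 1 was higher in white than in black by 2-fold or more, and the median log2 ratio was -1.63. In brown over white 2 were higher and none lower, and in brown over black none was higher and 4 were lower. Single markers differed in order, with ELANE and MPO highest in white and LCN2 highest in brown. Markers other than S100A8 and S100A12 ranged up to 20.7 FPKM, for LCN2 in brown. CXCR2 had 8.61 FPKM in brown, 6.31 in white and 8.64 in black skin, CXCR1 and CSF3R reached 2.64 and 2.17 FPKM, MPO was at no more than 0.173 FPKM, and MMP8 was at 0 in brown and white. The 8 macrophage markers summed to 98.3 FPKM in brown, 134 in white and 119 in black skin, with 1 lower and none higher in white than in black by 2-fold or more. The part of these cells in the ratio of SLC11A1 was not tested.

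The genes of the STEAP family, which holds metal reductases, were lowest in white skin in 3 of 4 cases and highest in brown in all 4. Over all loci, white was lowest at 25.3% and brown highest at 36%. STEAP1 had 10.1 FPKM in brown, 3.93 in white and 7.33 in black skin. At 1.36 in brown over white it had the highest log2 ratio of the 37 genes, reached by 1.17% of loci, with -0.90 in white over black and 0.46 in brown over black. STEAP4, an enzyme of fat and inflamed tissue in mice, had 16.1 FPKM in brown, 8.51 in white and 15.2 in black skin, with ratios of 0.92, -0.83 and 0.09 in the same comparisons. At 0.92 it was the nearest gene below the 2-fold limit in brown over white.

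STEAP3, the ferric reductase of the transferrin route in red cell precursors, had 10.8 FPKM in brown, 7.40 in white and 9.21 in black skin. STEAP2 differed least, with 6.49 FPKM in brown, 5.37 in white and 5.25 in black skin. STEAP1 and STEAP2 are neighbours on chromosome 4, 37.3 kb apart, and STEAP4 lies 1941 kb from STEAP1. Summed over the 4 genes, the level was 43.4 FPKM in brown, 25.2 in white and 36.97 in black skin. Span-centred, STEAP1 and STEAP4 had ratios of white over black of -1.05 and -1.04 and so passed the 2-fold limit. Adipocyte markers, 7 in all, summed to 59.3 FPKM in brown, 77.3 in white and 72.5 in black skin, most of it from CIDEA and PNPLA2. CIDEC alone was highest in brown, with 2.03 FPKM, against 1.20 in white and 1.33 in black. CIDEA, PNPLA2 and LPL were highest in white, and PLIN1 and ADIPOQ in black. ADIPOQ was at no more than 1.14 FPKM and LEP at 0 in every colour. Their part in the levels of STEAP4 was not tested.

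**Figure D3:**
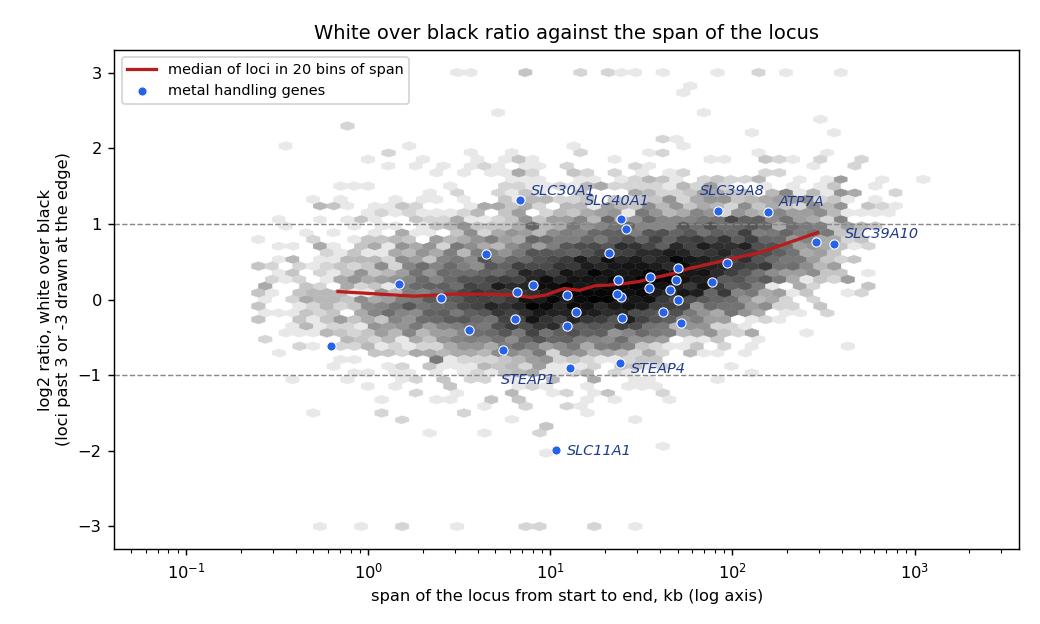
Log2 ratio of white over black against the span of the locus in kb on a log axis, with all loci as grey density, the metal handling genes as points, and the red line for the median of loci in 20 bins of span. The red line climbs with span, SLC30A1 lies above it by 1.25 at a span of 6.854 kb, and ATP7A lies above it by 0.53 at 155.9 kb.

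Iron storage dominated the level of the whole group. The ferritin heavy chain FTH1, which oxidises iron as it is stored, had 866 FPKM in brown, 1015 in white and 972 in black skin, and its log2 ratios lay between -0.23 and 0.06. The light chain FTL had 305 FPKM in brown, 315 in white and 480 in black skin, a log2 ratio of -0.61 in white over black and -0.66 in brown over black. Black skin was thus highest for FTL but not for FTH1, and the heavy chain was at 2.84 times the light chain in brown, 3.22 times in white and 2.02 times in black skin. Both chains together made up 56.2%, 57.6% and 61.8% of the summed FPKM of the 47 genes in brown, white and black skin. Ferritin genes have processed copies in mammalian genomes, and the authors reported every alignment of a read with several matches, so the split of reads between copies is uncertain. The FTL locus spans 625 bp, against 12339 bp for FTH1, and whether it covers the whole gene is unknown. The ratios between the chains and the ferritin shares rest on this locus.

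Ferroportin, SLC40A1, is the only known exporter of iron from mammalian cells and is abundant in macrophages that recycle iron. It had 48.4 FPKM in brown, 88.7 in white and 42.5 in black skin. White was higher than both other colours, with a log2 ratio of 1.06 in white over black, the closest above the 2-fold limit, and of -0.87 in brown over white, the lowest of the 37 genes. Brown and black differed by 0.19. The locus, on chromosome 2 from 6791630 to 6816031, spans 24402 bp, and the span-centred ratio of white over black was 0.85. The macrophage markers given above had a median log2 ratio of 0.30 in white over black and -0.19 in brown over white. The medians over all loci were 0.25 and -0.04. MSR1, CD14 and AIF1 were lower in white than in black, with -1.94, -0.76 and -0.45, and the other macrophage markers were higher. The part of macrophages in the levels of SLC40A1 was not tested.

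**Figure D4:**
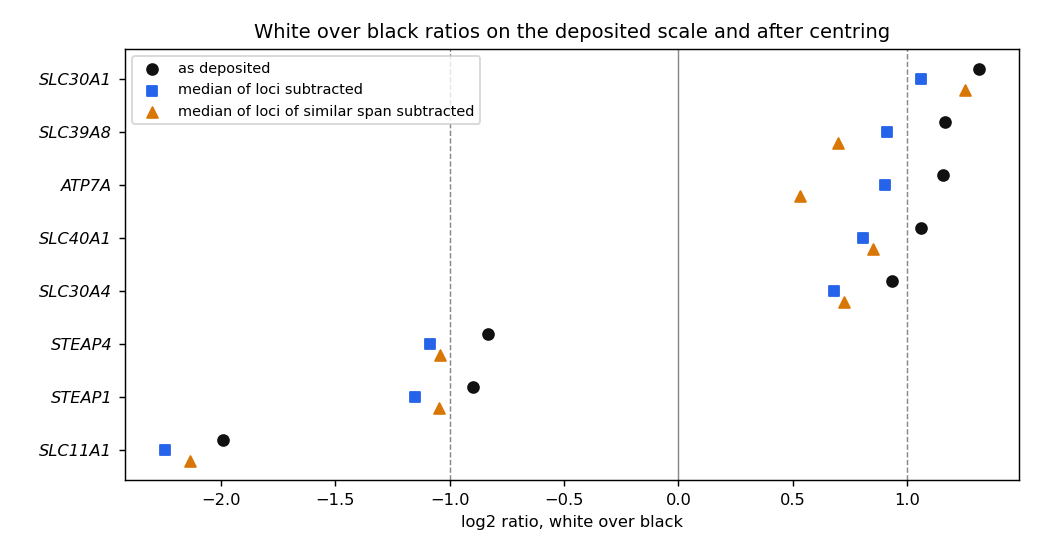
Log2 ratios of white over black, as deposited (circles), with the median of all loci subtracted (squares) and span-centred (triangles), with dashed lines at 2-fold. The genes drawn are SLC30A1, SLC39A8, ATP7A, SLC40A1, SLC30A4, STEAP4, STEAP1 and SLC11A1. SLC11A1 is among the 37 genes only through its level in black skin, so its ratio is not ranked with the others. On both centred scales SLC30A1 stays above the upper line, ATP7A, SLC39A8 and SLC40A1 lie below it, and STEAP1 and STEAP4 come to lie past the lower line.

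Genes that break down haem and sense iron differed little. HMOX1, the haem oxygenase induced by haem and oxidative stress, had 23.4 FPKM in brown, 28.9 in white and 25.3 in black skin. HMOX2, its constitutive relative, had 29.0 FPKM in brown, 29.0 in white and 27.5 in black skin. Both had log2 ratios between -0.30 and 0.19 in all 3 comparisons. The sensors ACO1 and IREB2, which bind the transcripts of ferritin and of the transferrin receptor when iron is scarce, were highest in brown. ACO1 had 21.4 FPKM in brown, 18.7 in white and 20.8 in black skin, and IREB2 had 11.7 FPKM in brown, 10.02 in white and 8.37 in black skin. The log2 ratio of IREB2 in brown over black was 0.48, which 24.7% of loci reached or passed. MT3, a metallothionein best known from the brain, had 15.1 FPKM in brown, 16.2 in white and 14.0 in black skin, and its log2 ratios lay between -0.10 and 0.21.

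The 10 genes under 1 FPKM in every colour were ATP7B, CP, HEPH, SLC30A2, SLC30A3, SLC30A8, SLC30A10, SLC39A4, SLC39A12 and TFR2. Several of them act mainly in other organs, such as the copper pump ATP7B and the transferrin receptor TFR2 in liver, the zinc carrier SLC30A8 in the endocrine pancreas and the importer SLC39A4 in the gut. HEPH, a ferroxidase of the gut, was the highest, with 0.588 FPKM in brown, 0.887 in white and 0.434 in black skin. CP, the ferroxidase of blood plasma, had 0.413 FPKM in brown, 0.0339 in white and 0.537 in black skin. SLC30A8 was listed at 0 in all colours, SLC30A10 at 0 in brown and black and SLC39A4 at 0 in white. At such levels no ratio is given. The transferrin receptor TFRC is reported only in a locus together with ZDHHC19 and is not 1 of the 47 genes. That locus had 12.9 FPKM in brown, 11.7 in white and 12.3 in black skin. TF, the plasma carrier of iron, and other metallothioneins were not analysed here under their own names.

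Outside the group, 43 further genes of metal use were listed from general knowledge, of which 36 were found and 31 reached 1 FPKM in a colour. Their median log2 ratio was 0.11 in white over black, 0.11 in brown over white and 0.19 in brown over black. In white against black skin 2 of the 31 were higher and 1 was lower by 2-fold or more, against 10.7% and 2.36% of all loci. In brown against white 1 was higher and 1 lower, against 2.49% and 4.87% of loci. In brown against black none passed the limit, against 3.74% of loci higher and 1.31% lower. HEPHL1, a copper ferroxidase whose loss gives kinky hair in people and mice, had 19.4 FPKM in brown, 38.2 in white and 14.6 in black skin, a log2 ratio of 1.39 for white over black. SOD3, the copper and zinc superoxide dismutase outside cells, had 2.51 FPKM in brown, 7.66 in white and 2.74 in black skin, with ratios of 1.48 in white over black and -1.61 in brown over white. LTF, the iron binding protein lactoferrin of neutrophils and glands, had 2.25 FPKM in brown, 0.344 in white and 2.83 in black skin. Its ratios were -3.04 in white over black and 2.71 in brown over white. LTF was the gene counted as lower in the former and as higher in the latter. It lay under 1 FPKM in white and met the minimum only through brown and black, where it was higher. The size of its ratios is therefore not set against the other genes. MTF1, the factor through which zinc acts on transcription, had 6.57 FPKM in brown, 6.42 in white and 5.95 in black skin, and was added after its values were seen.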

How the data were processed

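RNA from skin of 6 goats was sequenced as read pairs of 100 bp. The methods and the submitters' notes name alignment to an NCBI goat assembly by TopHat 2.1.0 with Bowtie 2.2.6, in which every alignment of a read was reported, and assembly by Cufflinks 2.2.1. The deposited FPKM (fragments scaled by transcript length and by the mapped fragments of the library) was made by the authors with CuffDiff, 1 value per colour over its 2 goats. The normalization of libraries and the genome build are not given in the sources used here. The table also holds the authors' log2 fold changes, test statistics, p-values and q-values, which were not used, so no test was made. Values of a colour were checked to be the same in both comparisons that hold it (0 differences).

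Log2 ratios of FPKM were computed for loci with an FPKM of at least 1 in at least 1 of 3 colours and above 0 in both colours compared. Alternatives were pseudocounts of 1 and 0.1, no filter, a minimum in both colours, a minimum of 5, a 1.5-fold limit, and subtraction of the median of all loci, of 14 reference genes or of loci in the same of 20 bins of span. The ratio and centring steps were tested on simulated data. Chromosomes are those most gene names of a sequence have in the RefSeq annotation of ARS1.2, in which 45 of 47 symbols were matched. That annotation is of another build and its coordinates were not used. No sequences were used here.

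The 47 genes follow a rule on symbols. The rule, the marker lists and the comparisons were chosen with earlier results of these data known. Described with values are ATP7A, every gene past 2-fold in a comparison, the 2 most abundant of each role and those nearest to the limit, and other genes with values of their own were chosen after these were seen. The markers were of melanocytes, macrophages, neutrophils, red blood cells, adipocytes, proliferating cells and basal keratinocytes. Computations used Python 3.11.15, pandas 2.3.3 and numpy 2.4.6, and figures matplotlib 3.10.9.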

Additional observations from a re-analysis of the deposited data

How the results depend on the processing

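No paired analysis was possible because the table gives 1 value per colour, and leaving out a goat was not possible for the same reason. Counts are given as genes higher and lower, with a change of more than 1.5 times, or of 0.1 in a median or a log2 ratio, taken as a move. The ratio of ATP7A in white over black, the only ratio past the limit followed through the settings, kept its direction. Of the values recomputed, 66 did not move and 36 moved. The cause of a move was not tested beyond what each setting changes by construction. In white over black, 4 genes were higher and 1 lower, against 10.7% and 2.36% of loci. With 1 added to each FPKM 0 were lower, against 1.54% of loci, and ATP7A had 0.92, or 0.72 in brown over black. Without the filter, 44 genes had a ratio and 9 were higher and 2 lower, against 14.5% and 4.13% of loci. With at least 1 FPKM in both colours, and with at least 5 FPKM in a colour, 0 were lower, against 1.54% and 1.77% of loci. Both centrings on loci, by all loci and by span, gave 1 higher and 3 lower (loci 5.93% and 3.82%, and 5.16% and 3.38%), a median of -0.12, and 0.91 and 0.53 for ATP7A. At 1.5-fold, 9 were higher and 5 lower, against 27.1% and 6.05% of loci. In brown over white, 2 genes were higher and 0 lower, against 2.49% and 4.87% of loci. One gene, STEAP1, was higher with 1 FPKM added, with the minimum in both colours and with the minimum of 5 (1 in each). The shares of loci higher in these settings were 1.48%, 1.54% and 1.66%. Without the filter 2 were lower (loci 8.06%), with reference genes subtracted 1 was lower (7.30%), and at 1.5-fold 4 were lower (12.8%). The median was -0.22 and ATP7A -0.43 with reference genes subtracted, and ATP7A was -0.14 with span. In brown over black 0 were higher and 0 lower, against 3.74% and 1.31% of loci. There 1 was higher and 1 lower without the filter (loci 7.54% and 3.43%), and 5 and 2 at 1.5-fold (17.7% and 3.62%). The median was -0.022 with all loci, 0.081 with reference genes and -0.049 with span subtracted, and ATP7A then had 0.71, 0.81 and 0.40. The medians subtracted were 0.25 (all loci) and -0.08 (reference genes) in white over black, -0.04 and 0.19 in brown over white, and 0.21 and 0.11 in brown over black. The FPKM gives no fragment counts, so the precision of low levels such as those of SLC11A1 is unknown.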

Other observations

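Beside MT3, within 50 kb on its side of lower coordinates in the table, lie 4 loci known by identifier only, chosen after their values were seen. The side of higher coordinates was not searched. The files and the later annotation give them no name, and no role is given to them here. LOC102188072, classed as protein coding and 8.02 kb from MT3, had 694 FPKM in brown, 287 in white and 648 in black skin, with log2 ratios of 1.27 for brown over white and -1.18 for white over black. LOC102188339, classed as lncRNA, had 253 FPKM in brown, 135 in white and 244 in black skin. LOC102188618, a protein-coding locus, had 44.5 FPKM in brown, 17.7 in white and 58.4 in black skin, with log2 ratios of 1.33 for brown over white and -1.72 for white over black. The level in white skin was the lowest of the colours at these 3 loci. At LOC102188887, also protein coding, it was 18.9 FPKM in brown, 22.1 in white and 27.2 in black skin.

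Proliferation markers, 10 in all and each above 1 FPKM, summed to 205 FPKM in brown, 140 in white and 155 in black skin, and none differed by 2-fold between any colours. Of 10 markers of red blood cells 5 were found, and SLC4A1 alone reached 1 FPKM, with 0.684 FPKM in brown, 1.88 in white and 0.512 in black skin.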
